A study of Mus musculus with 16 samples.

Results

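The genes described here belong to the Eph, ephrin, plexin, neuropilin and semaphorin families of guidance molecules, followed in splenic B cells with and without a CD23-Cre allele acting on floxed Rock2. They are Epha2, Efnb1, Plxnb2, Plxnd1, Nrp2, Sema4d, Sema7a and Sema4b. These are 8 of the 25640 genes in the deposited count table, were found there by symbol, and all 8 passed the filter on low counts that left 13708 genes to test. The genes were chosen by name with the genotype and cell type comparisons of these same libraries already known. Every fold change and adjusted p given for them is therefore a description of the fit over all genes, not independent support.

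The libraries hold polyadenylated RNA of follicular B cells (FoB), the resting cells of the follicle, and of germinal center B cells (GCB), which proliferate and are selected on antigen. Both were sorted by flow cytometry from spleens of 10-week-old C57BL/6 mice, 7 days after 100 µg of the hapten carrier conjugate NP-CGG in alum. All mice, controls included, carried Rock2 flox/flox. WT mice had no Cre, and cKO mice had CD23-Cre, a transgene expressed once maturing B cells turn on CD23. Both genotypes gave 3 FoB and 3 GCB libraries, numbered 1 to 3, which makes 4 groups and 12 libraries. The series title names ROCK2, GCB positioning and cholesterol as its subjects. The libraries are not stated to come from separate animals, so p-values measure only the spread between these samples.

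Guidance receptors read the position of a cell from ligands on its neighbours. Eph receptors are tyrosine kinases that bind membrane-anchored ephrins, and signals run into both cells. Plexins bind semaphorins, some of them through a neuropilin co-receptor, and carry a GTPase-activating domain in the cell. B-class plexins can act on RhoA through the exchange factors Arhgef11 and Arhgef12, Eph receptors through other exchange factors, and ROCK kinases are effectors of RhoA. In the germinal center, ephrin-B1 on B cells is known to affect contacts with follicular helper T cells, and plexin-B2 on germinal center B cells is known as a receptor for Sema4c on those T cells.

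Epha2 and Nrp2, the members that lay higher in every cKO GCB library with the smallest p-values, have 1 annotated promoter each. The 250 bases upstream of the start are printed here from RefSeq (GRCm38.p6), with motif matches in capitals. The Epha2 window is chr4:141300971-141301220 and the Nrp2 window is chr1:62703067-62703316, both on the plus strand.
Epha2: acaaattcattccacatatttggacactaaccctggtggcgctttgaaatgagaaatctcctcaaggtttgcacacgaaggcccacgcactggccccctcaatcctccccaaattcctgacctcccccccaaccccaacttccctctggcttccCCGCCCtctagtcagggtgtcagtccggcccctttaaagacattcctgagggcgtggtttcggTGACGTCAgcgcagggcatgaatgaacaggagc
Nrp2: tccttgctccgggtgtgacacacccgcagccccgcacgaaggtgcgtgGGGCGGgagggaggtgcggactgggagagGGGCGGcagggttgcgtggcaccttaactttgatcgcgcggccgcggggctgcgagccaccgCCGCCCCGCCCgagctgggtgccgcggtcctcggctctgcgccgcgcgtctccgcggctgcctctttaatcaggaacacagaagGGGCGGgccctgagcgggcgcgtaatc
In both, capitals mark the GC box (GGGCGG on either strand) or, in Epha2, the cAMP element (TGACGTCA). Epha2 held 1 GC box from -96 to -91 and 1 cAMP element from -33 to -26, counted from the start. Nrp2 held 5 GC boxes, of which the one from -111 to -106 shares a base with the one from -106 to -101. A GC box occurred in 32.7% of 32851 promoters and the cAMP element in 1.55%. Of 8 members, 7 had a GC box in at least 1 of their promoters and 1, Epha2, had the cAMP element. The percentages count single promoters, whereas Plxnb2 and Sema4b had 2 promoters each and Sema4d had 3. They also cover promoters of genes that were not tested, and the shares among tested genes were not counted. The E-box (CACGTG) was in 1 member against 6.02% of promoters, and the ETS core (CCGGAA) in 1 against 12% of promoters. The interferon element (GAAA, any pair of bases, GAAA) was in 0 members against 2.98% of promoters. The CArG box (1.47% of promoters) and the p53 half-site (7.13%) were each in 1 member, Sema4d. A match is a run of letters and not a bound site. The C+G content was 55.6% in the Epha2 window and 72.4% in the Nrp2 window.

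The libraries fell by cell type, and the markers fitted the sort. The summed level of 8 naive follicular markers was 7150 to 11700 CPM (counts scaled to library size with TMM factors) in FoB and 789 to 1320 CPM in GCB. The summed level of 10 germinal center markers was 86.5 to 134 CPM in FoB and 2190 to 3070 CPM in GCB. Total counts were 23349512 to 26967943 per library. WT FoB 1 and cKO GCB 1 lay nearer to the other cell type on the first principal component than their replicates did (-68.2 against -83.8 to -79.8, and 59.5 against 78.6 to 91.8). The 4 libraries of number 2 had 3.72% to 5.50% of their counts in mitochondrial genes, and the other 8 had 1.04% to 2.95%. Rock2 itself was lower in every cKO library than in any WT library of its cell type. It measured 198, 154 and 145 CPM in WT GCB, against 119, 131 and 92.6 CPM in cKO GCB, a log2 fold change of -0.54 ± 0.18 (± standard error; edgeR adjusted p = 0.563). With the replicate number as a block it fell by 0.53 ± 0.12 (edgeR adjusted p = 0.0330), the only 1 of 21 alternatives in which it passed. With the block and without WT FoB 1 and cKO GCB 1 it was -0.42 ± 0.13 (edgeR adjusted p = 0.253). In FoB it measured 151, 129 and 132 CPM in WT and 123, 87.4 and 96.5 CPM in cKO (-0.42 ± 0.18, adjusted p = 1). Reads outside the floxed exons can remain in these per-gene counts. The authors' deposited table also tags Rock2 as a host of noncoding RNA, so the strand of its reads is uncertain.

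Among the receptors, Epha2 rose in cKO GCB. It is an Eph receptor tyrosine kinase of the A class (ENSMUSG00000006445, mm10 chromosome 4, 141301221 to 141329384), best known from epithelial cells, that binds ephrin-A ligands. Libraries 1, 2 and 3 of WT GCB measured 1.41, 2.04 and 1.64 CPM (37, 49 and 41 reads). Those of cKO GCB measured 5.98, 6.84 and 7.35 CPM (159, 170 and 194 reads). The groups did not overlap, and the lowest cKO GCB library lay above every WT library of either cell type. The mean went from 1.70 ± 0.319 to 6.72 ± 0.693 CPM (SD, n = 3), a 3.95-fold difference. The log2 fold change was 1.98 ± 0.29 (edgeR adjusted p = 0.0289), and within numbers 1, 2 and 3 it was 2.08, 1.74 and 2.16. In this comparison 0.102% of the 13708 genes were called, all 14 of them higher in cKO, and 1 of the 8 members was among them. With the replicate number as a block, 2.14% of genes were called, and 2 members with them.

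Without the block, the Epha2 call depended on which libraries entered. The log2 fold change stayed between 1.86 and 2.13 when any 1 library was left out, but the adjusted p then rose above the threshold of 0.05 for 8 of the 12 libraries. It was 0.0967 without cKO GCB 1, 0.165 without cKO GCB 2, 0.190 without WT GCB 1, 0.0918 without WT GCB 2 and 0.145 without WT GCB 3. It was 0.0542 without cKO FoB 1, 0.0602 without cKO FoB 3 and 0.0644 without WT FoB 2. Without WT FoB 1 and cKO GCB 1 together, Epha2 had a log2 fold change of 2.06 ± 0.29 (edgeR adjusted p = 0.0699). With the block, all 12 libraries gave 1.99 ± 0.21 (edgeR adjusted p = 0.000291). The block fit without WT FoB 1 and cKO GCB 1 gave 1.95 ± 0.26 (edgeR adjusted p = 0.00197). Single libraries were left out only in the fit without the block.

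In FoB, Epha2 lay at 0.521, 0.778 and 1.12 CPM in WT and at 1.06, 1.39 and 1.302 CPM in cKO. The highest WT library lay inside the cKO range, and each cKO library lay above the WT library of its number. The log2 fold change was 0.64 ± 0.31 (edgeR adjusted p = 1). By group mean Epha2 was lowest in WT FoB, then in cKO FoB, then in WT GCB, and highest in cKO GCB, with the 2 FoB groups overlapping. WT GCB lay above cKO FoB in all libraries, by a narrow margin (lowest 1.41 against highest 1.39 CPM). The difference of the GCB and FoB genotype effects was 1.34 ± 0.42 on the log2 scale and did not pass (edgeR adjusted p = 1, and 0.132 with the block).

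Plxnd1, a plexin that binds Sema3e without a neuropilin and is known from vessel growth and thymocyte migration, was a gene of follicular cells here (ENSMUSG00000030123, chromosome 6, 115954811 to 115995339). It measured 34.0, 21.4 and 32.8 CPM in WT FoB and 31.3, 14.7 and 31.2 CPM in cKO FoB. In GCB it measured 3.29, 3.30 and 2.53 CPM in WT and 11.6, 5.07 and 4.66 CPM in cKO. The FoB groups overlapped, with number 2 lowest in both, and the GCB groups did not. In WT it fell by 3.27 ± 0.41 on the log2 scale from FoB to GCB (edgeR adjusted p = 4.41e-05). In cKO it fell by 1.85 ± 0.38 (edgeR adjusted p = 0.00190).

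In GCB, cKO Plxnd1 had a log2 fold change of 1.23 ± 0.39 over WT, which did not pass (edgeR adjusted p = 0.469, and 0.0511 with the block). The value within numbers was 1.82, 0.62 and 0.88, with library 1 of cKO GCB standing above the other 2. Without WT FoB 1 and cKO GCB 1 it was 0.68 ± 0.34 (edgeR adjusted p = 1). In FoB the difference was -0.19 ± 0.37 (edgeR adjusted p = 1), lower in 3 of 3 numbers. The annotated promoter window of Plxnd1 lies inside the gene's annotated span and is not printed.

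Nrp2, a neuropilin that binds class 3 semaphorins with A-class plexins and also binds some vascular growth factors, had the same order of groups as Plxnd1 (ENSMUSG00000025969, chromosome 1, 62703317 to 62818692). It measured 9.28, 5.53 and 5.54 CPM in WT FoB and 5.98, 5.42 and 8.39 CPM in cKO FoB. In WT GCB it measured 0.841, 1.42 and 0.762 CPM (22, 34 and 19 reads), and in cKO GCB 3.76, 3.66 and 2.50 CPM (100, 91 and 66 reads). Every cKO GCB library lay above every WT GCB library and below every FoB library. The FoB groups overlapped, with means of 6.78 ± 2.16 and 6.60 ± 1.58 CPM. Reads of Nrp2 carry an uncertain share, since the authors' deposited table tags it as overlapping another locus.

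The Nrp2 log2 fold change of cKO over WT GCB was 1.71 ± 0.34, with 2.16, 1.37 and 1.71 within the numbers. It did not pass without the block (edgeR adjusted p = 0.101) and passed with it (1.71 ± 0.32, edgeR adjusted p = 0.0142). It was 1.61 ± 0.35 without WT FoB 1 and cKO GCB 1 (edgeR adjusted p = 0.367, and 0.0400 with the block). In FoB it was -0.04 ± 0.31 (edgeR adjusted p = 1). The difference of the effects was 1.75 ± 0.45 (edgeR adjusted p = 0.883, and 0.111 with the block). Between cell types Nrp2 fell by 2.75 ± 0.34 in WT (edgeR adjusted p = 4.15e-05) and by 1.00 ± 0.31 in cKO (edgeR adjusted p = 0.0209). The call in cKO was lost without cKO FoB 3 (adjusted p = 0.0855) and without cKO GCB 3 (adjusted p = 0.0779).

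Plxnb2, a B-class plexin whose ligands include Sema4c, was a GCB gene in both genotypes (ENSMUSG00000036606, chromosome 15, 89155546 to 89182018). It measured 36.8, 25.9 and 29.2 CPM in WT FoB and 25.7, 22.4 and 27.4 CPM in cKO FoB. It measured 482, 586 and 702 CPM in WT GCB, against 477, 465 and 697 CPM in cKO GCB. All 6 GCB libraries lay far above all 6 FoB libraries, and the genotypes overlapped in both cell types. GCB exceeded FoB 19.2-fold in WT (log2 4.27 ± 0.23, edgeR adjusted p = 3.3e-07) and 21.7-fold in cKO (log2 4.44 ± 0.23, edgeR adjusted p = 3.62e-07). The genotype difference was -0.11 ± 0.20 in GCB and -0.28 ± 0.21 in FoB (edgeR adjusted p = 1 for each). The authors' deposited table tags Plxnb2 as a host of noncoding RNA, so the strand of its reads is uncertain.

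**Figure D1:**
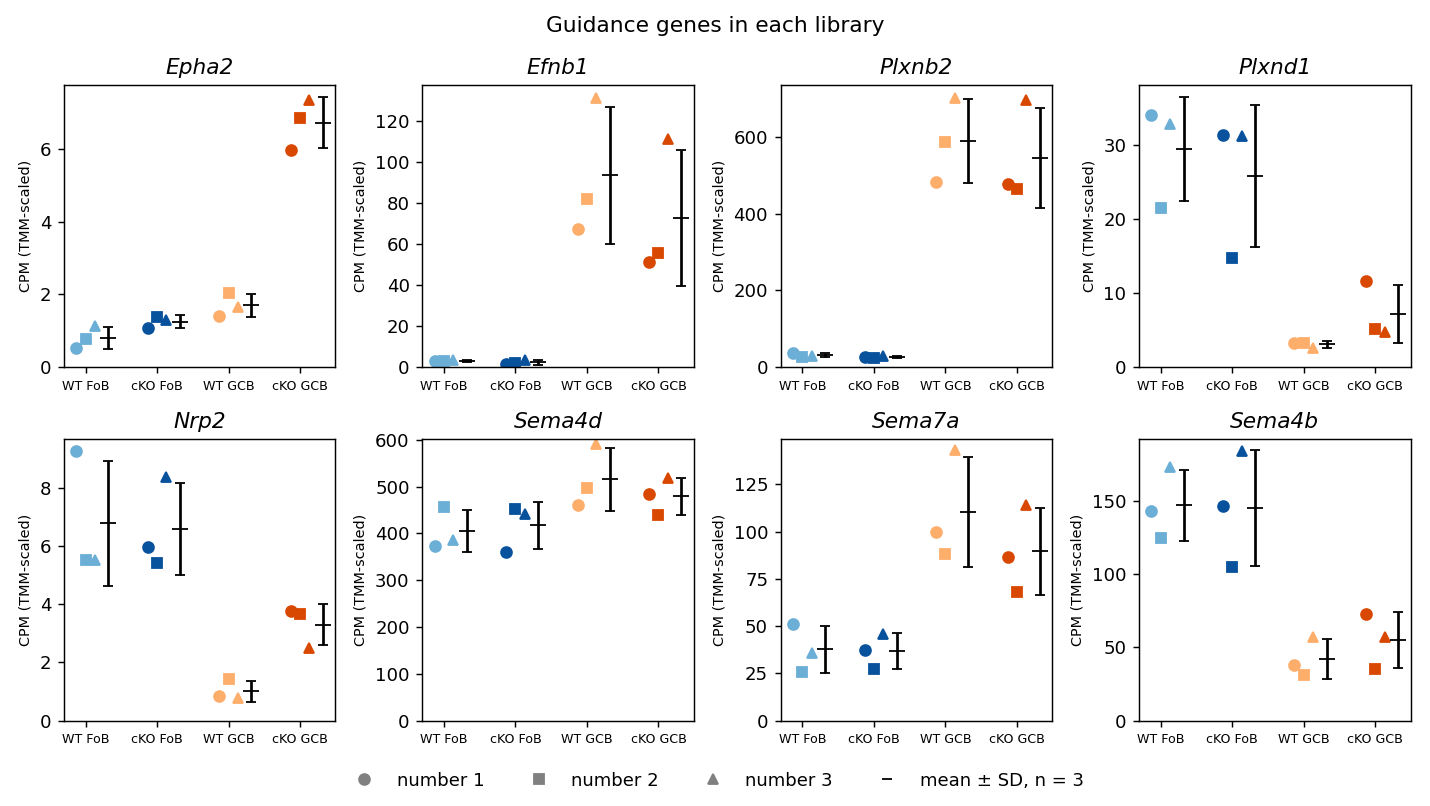
Each panel plots 1 gene in TMM-scaled CPM (linear axis from 0) for the 12 libraries by group, with marker shape for the replicate number and the black bar for mean ± SD (n = 3). Epha2, Nrp2 and Plxnd1 separate the GCB genotypes (Epha2 at 1.41 to 2.04 CPM in WT and 5.98 to 7.35 CPM in cKO), and the other 5 genes overlap between genotypes.

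Among the ligands, Efnb1 had the largest log2 fold change between cell types of the 8 in both genotypes. It encodes ephrin-B1, a transmembrane ligand of EphB receptors (ENSMUSG00000031217, chromosome X, 99136061 to 99149022). It measured 2.92, 2.68 and 3.27 CPM in WT FoB and 1.40, 2.02 and 3.62 CPM in cKO FoB. In GCB it measured 67.3, 82.1 and 131 CPM in WT and 51.3, 55.8 and 111 CPM in cKO. Library 3 was the highest in both GCB groups, and the genotypes overlapped. GCB exceeded FoB 31.6-fold in WT (log2 4.98 ± 0.43, edgeR adjusted p = 2.81e-06) and 31.0-fold in cKO (log2 4.95 ± 0.43, edgeR adjusted p = 3.71e-06).

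Each cKO GCB library held less Efnb1 than the WT GCB library of its number, but the difference did not pass. The log2 fold change was -0.36 ± 0.36 (edgeR adjusted p = 1, and 0.167 with the block). In FoB it was -0.33 ± 0.41 (edgeR adjusted p = 1).

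Sema7a, a GPI-anchored semaphorin that binds Plxnc1 and beta-1 integrin (ENSMUSG00000038264, chromosome 9, 57939596 to 57962865), was also higher in GCB. It measured 51.0, 25.9 and 35.9 CPM in WT FoB and 37.1, 27.1 and 45.9 CPM in cKO FoB. In GCB it measured 99.7, 88.0 and 143 CPM in WT and 86.8, 67.9 and 114 CPM in cKO. The cell types did not overlap and the genotypes did. The rise from FoB was 2.93-fold in WT (log2 1.55 ± 0.30, edgeR adjusted p = 0.00106) and 2.44-fold in cKO (log2 1.29 ± 0.29, edgeR adjusted p = 0.00367). The genotype difference in GCB was -0.30 ± 0.29, lower in 3 of 3 numbers (edgeR adjusted p = 1).

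Sema4d, or CD100, a transmembrane semaphorin that binds Plxnb1 and, on lymphocytes, Cd72 (ENSMUSG00000021451, chromosome 13, 51685529 to 51793678), varied least among the 8. It measured 374, 457 and 387 CPM in WT FoB and 360.1, 452 and 441 CPM in cKO FoB. In GCB it measured 461, 497 and 591 CPM in WT and 483, 438 and 518 CPM in cKO. The WT cell types only just did not overlap (457 against 461 CPM), and the cKO cell types overlapped. The cell type difference was 0.35 ± 0.15 in WT (edgeR adjusted p = 0.0776, and 0.0125 with the block) and 0.20 ± 0.15 in cKO (edgeR adjusted p = 0.302). The genotype difference was -0.11 ± 0.15 in GCB and 0.04 ± 0.15 in FoB (edgeR adjusted p = 1 for each).

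Sema4b, a transmembrane semaphorin of the same class, ran the other way (ENSMUSG00000030539, chromosome 7, 80186870 to 80226646). It measured 143, 124 and 173 CPM in WT FoB and 146, 105 and 184 CPM in cKO FoB. In GCB it measured 37.9, 31.2 and 57.1 CPM in WT and 72.7, 35.2 and 56.9 CPM in cKO. Every GCB library lay below every FoB library. It fell by 1.80 ± 0.31 on the log2 scale in WT (edgeR adjusted p = 0.000456) and by 1.40 ± 0.30 in cKO (edgeR adjusted p = 0.00251). In GCB the genotype difference was 0.38 ± 0.30 (edgeR adjusted p = 1), with 0.94, 0.17 and -0.0035 within the numbers, so that library 1 made most of it. The authors' deposited table tags Sema4b, like Nrp2, as overlapping another locus.

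Over the 8 members, 4 rose and 3 fell from FoB to GCB in WT, and the same counts held in cKO. Of all genes tested, 48.4% were called in WT (25.6% higher, 22.8% lower) and 46.6% in cKO (24.8% higher, 21.8% lower). With the block 8 members were called in WT and 7 in cKO, beside 69.5% and 69.0% of all genes. Cell types did not overlap for 56.3% of all genes in WT and 53.6% in cKO. The median log2 fold change of the members was 0.71 in WT and 0.74 in cKO, beside -0.01 and -0.02 over all genes. Efnb1, Plxnb2, Sema7a, Sema4b, Plxnd1 and Nrp2 passed under each of 21 alternative settings in WT. Epha2, higher in WT GCB than in WT FoB by 1.08 ± 0.30 (edgeR adjusted p = 0.0114), passed in 18 of 21. It did not pass without WT FoB 1 and cKO GCB 1 (0.84 ± 0.32, adjusted p = 0.0609). In cKO the Epha2 difference was 2.42 ± 0.30 (edgeR adjusted p = 4.37e-05).

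Over the same 8 genes, cKO and WT GCB did not overlap for 3, Epha2, Nrp2 and Plxnd1, all higher in cKO. Over all genes, 8.37% did not overlap, 5.42% higher and 2.95% lower in cKO. The median member log2 fold change was 0.14 in GCB, beside -0.003 over all genes, and 4 of 8 lay above 0. In FoB 0 members were called by edgeR with or without the block, 0 had an unadjusted p below 0.05 and 0 were called by DESeq2. Of all genes, edgeR called 0.0% with and without the block, 95 of 13708 had an unadjusted p below 0.05, and DESeq2 called 4. All 8 members overlapped between genotypes in FoB. Of all genes, 2.2% did not overlap in FoB. Of the differences between the GCB and FoB genotype effects, 0 of 8 passed in edgeR, beside 0.0073% of all genes, and again 0 of 8 with the block, beside 0.263%. An unadjusted p below 0.05 was reached by 3 members (Epha2, Nrp2 and Plxnd1), beside 371 of all 13708 genes, and DESeq2 called 0 members, beside 20 of all genes. In the authors' deposited table Epha2 had a log2 fold change of 2.00 in GCB (FDR 0.0157), Nrp2 1.73 (FDR 0.0856), Plxnd1 1.19 (FDR 0.250) and Sema4b 0.38 (FDR 0.695). The lowest FDR of any member in FoB in the authors' deposited table was 1.

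**Figure D2:**
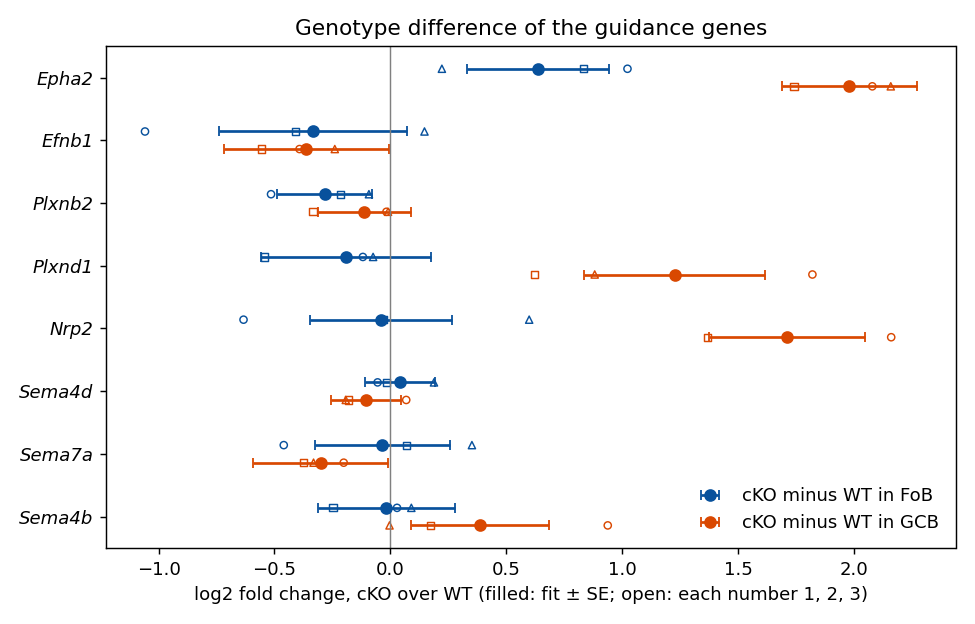
The horizontal axis gives the log2 fold change of cKO over WT for each of the 8 genes, with filled points and bars for the fit ± standard error and open markers for the ratio within each replicate number, in FoB (blue) and GCB (orange). Epha2 (1.98 ± 0.29), Nrp2 (1.71 ± 0.34) and Plxnd1 (1.23 ± 0.39) lie to the right of 0 in GCB at all 3 numbers, and no FoB value passed the test.

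Marker lists of several cell types lay at different levels in WT and cKO GCB. The naive follicular sum ran from 821 to 876 CPM over WT GCB and was 1320, 1110 and 789 CPM for cKO GCB 1, 2 and 3, with 7 of its 8 genes higher in cKO by fold change. All 8 were detected, Ighd for example at 61.5 to 102 CPM in WT GCB, against 83.2 to 222 CPM in cKO GCB. The germinal center sum was 2940 to 3070 CPM in WT GCB, against 2190 to 2550 CPM in cKO GCB, with 9 of its 10 genes lower. The T cell sum was 6.10 to 9.47 CPM in WT GCB, against 10.7 to 25.7 CPM in cKO GCB, with all 9 genes higher. The NK cell sum was 5.14 to 6.51 CPM in WT GCB, against 9.54 to 10.3 CPM in cKO GCB, with all 6 genes higher. Of the 6 plasma cell genes 5 were higher in cKO by fold change, among them Prdm1 (2.45 to 3.92 CPM in WT GCB and 4.96 to 8.17 CPM in cKO GCB) and Irf4 (37.2 to 54.2 and 59.4 to 97.8 CPM), while the sums overlapped, at 1010 to 1730 and 1090 to 1810 CPM. Of the 8 marginal zone and B-1 genes 6 were higher by fold change. Bhlhe41 was among them, at 4.43 to 6.70 CPM in WT GCB and 12.6 to 27.3 CPM in cKO GCB. In FoB it was at 13.4 to 32.2 CPM. Dtx1 overlapped between the GCB genotypes, at 53.7 to 116 and 45.0 to 114 CPM. All 5 general B cell genes were lower by fold change, with sums of 6180 to 6770 CPM in WT GCB and 5390 to 5890 CPM in cKO GCB.

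Plxnd1 and Nrp2 are both higher in FoB than in GCB, so these marker values stand beside their GCB difference, and their part in it was not tested. The sum of 789 CPM in cKO GCB 3 was the lowest of the 6, with Cr2 at 178 CPM there, against 284 to 350 CPM in WT GCB. Other naive genes lay above every WT GCB library in cKO GCB 3, among them Ccr6 at 28.5 CPM, against 11.7 to 18.4 CPM in WT GCB, Gpr183 at 20.3 against 7.49 to 12.6 CPM, Bcl2 at 13.4 against 8.19 to 9.17 CPM and Klf2 at 22.2 against 10.8 to 21.3 CPM. Nrp2 was at 2.50 CPM and Plxnd1 at 4.66 CPM in that library. The highest FoB value of Epha2 was 1.39 CPM. Macrophage and monocyte markers summed to 10.8 to 24.4 CPM in WT GCB, against 12.6 to 28.4 CPM in cKO GCB. Stromal markers stayed at or below 0.401 CPM in GCB. Endothelial markers, which matter for Nrp2 and Plxnd1, summed to 86.4 to 92.7 CPM in WT GCB, against 82.9 to 108 CPM in cKO GCB, and both tested genes of the list were higher in cKO by fold change. Most of that sum was Pecam1, at 80.7 to 105 CPM over the 6 GCB libraries and 327 to 397 CPM in FoB. Tek was at 0 in all 6 GCB libraries, Kdr reached 0.161 CPM and Cdh5 lay between 1.69 and 2.93 CPM. In these bulk samples, fewer cells of a type and less RNA per cell cannot be told apart.

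**Figure D3:**
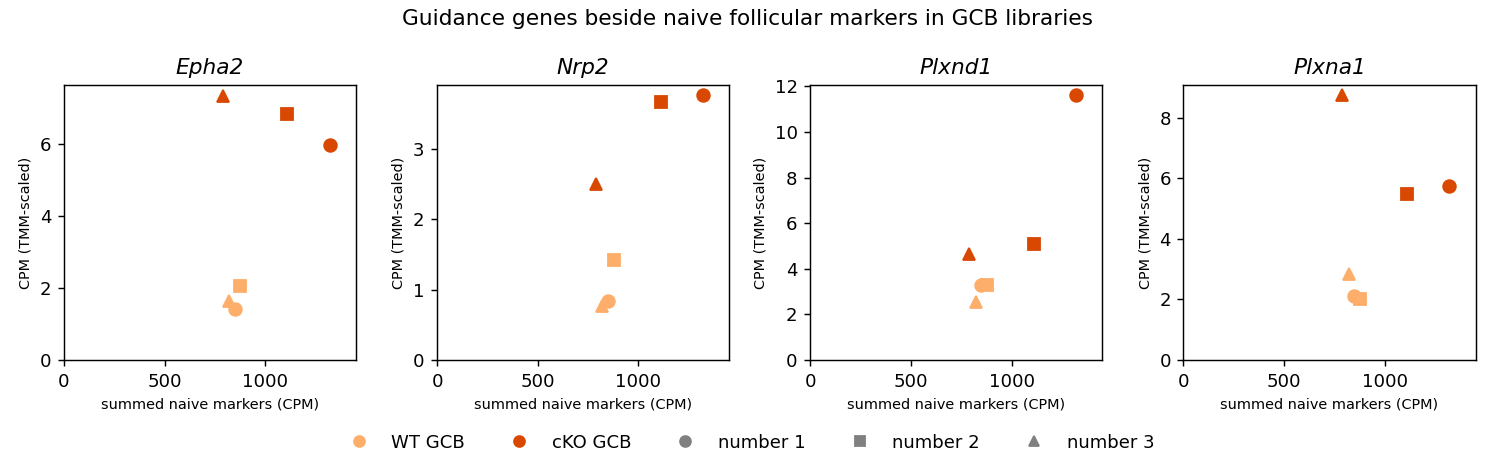
Each panel sets 1 gene (vertical axis, TMM-scaled CPM) against the summed level of the 8 naive follicular markers (horizontal axis, CPM) in the 6 GCB libraries, with WT in light orange, cKO in dark orange and marker shape for the replicate number. The 789 CPM of cKO GCB 3 (triangle) holds a low Cr2 value (178 CPM), while Ccr6, Gpr183, Bcl2 and Klf2 in that library lie above every WT GCB library. Plxnd1 is highest in cKO GCB 1, which has the highest naive sum (1320 CPM).

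The rest of the guidance families was read from a list drawn up by family membership. The 5 families held 45 genes in the table, of which 23 were tested: 2 of 9 Eph receptors, 4 of 6 ephrins, 6 of 9 plexins, both neuropilins and 9 of 19 semaphorins. From FoB to GCB in WT, 6 of the 23 rose and 8 fell, with a median log2 fold change of -0.27. Over all genes tested, 48.4% were called (25.6% higher, 22.8% lower). Of the 15 that are not members, 2 rose and 5 fell, 7 in all, which is near the share over all genes. Those that rose were Ephb2, an EphB receptor for ephrin-B ligands, and Sema4f. Ephb2 went from 0.0802 ± 0.0451 to 1.90 ± 0.170 CPM (log2 4.50 ± 0.49, edgeR adjusted p = 1.64e-05), and Sema4f from 0.0789 ± 0.0412 to 1.77 ± 0.594 CPM (log2 4.41 ± 0.63, edgeR adjusted p = 0.000132). In FoB, Ephb2 had 1 to 6 reads per library and Sema4f 0 to 3, against 39 to 52 and 32 to 63 in GCB. Both passed the filter on low counts through GCB alone, so a rise was the only direction that could be tested. Efnb1, the ligand, and Ephb2, a receptor for it, both had their higher values in GCB, and for Ephb2 this is a description.

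Those that fell included Sema4a, known in T cell and dendritic cell interactions, from 10.1 ± 1.29 to 1.305 ± 0.123 CPM (log2 -2.95 ± 0.28, edgeR adjusted p = 5.05e-06). Sema5a fell by 1.68 ± 0.28 on the log2 scale (edgeR adjusted p = 0.000405). Plxna3 fell by 1.5 ± 0.51 (edgeR adjusted p = 0.0287) and Plxna1 by 0.73 ± 0.26 (edgeR adjusted p = 0.0369). Both are A-class plexins, which signal for class 3 semaphorins with neuropilins. Plxna3 lost its call without WT FoB 1 (adjusted p = 0.107), WT FoB 3 (0.0601), WT GCB 2 (0.0986) or WT GCB 3 (0.0682). Sema3g, named after its value was seen, completed the 5 and was below 1 CPM on average in both groups (log2 -1.43 ± 0.55, edgeR adjusted p = 0.0487). Plxna1 lost its call without WT FoB 1 (adjusted p = 0.117), WT FoB 2 (0.0609), WT GCB 1 (0.103) or WT GCB 2 (0.116).

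**Figure D4:**
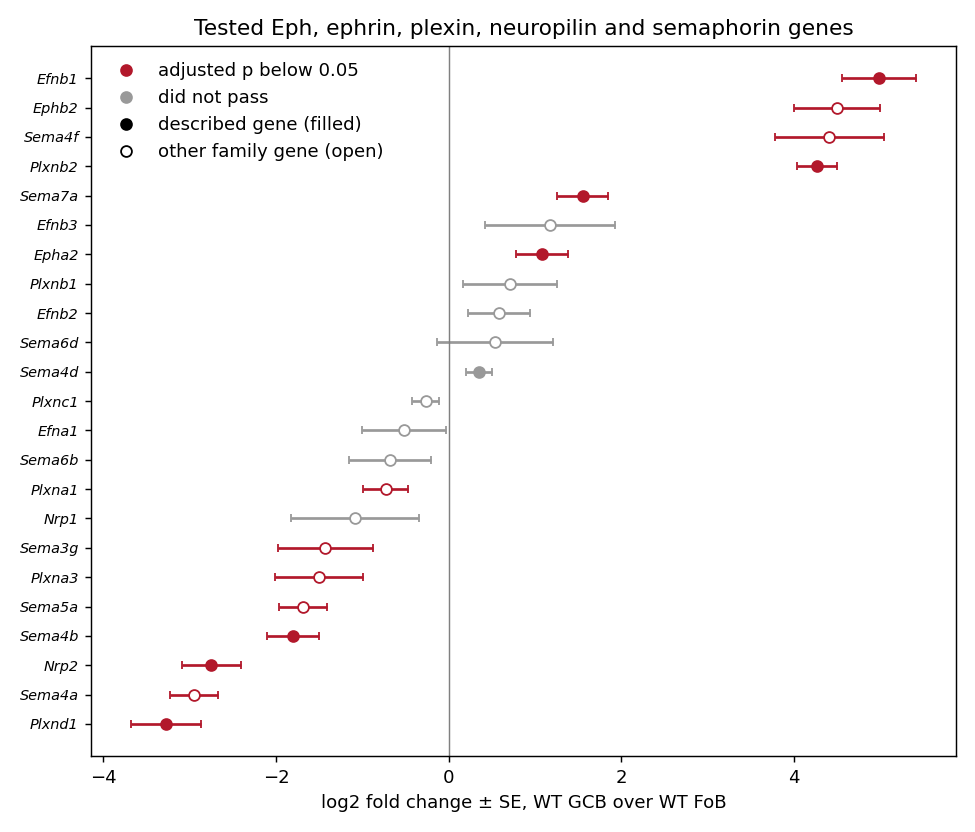
Points give the log2 fold change (± standard error) of WT GCB over WT FoB for the 23 tested family genes, ordered by size, with the 8 described genes filled, the other 15 open, and red for adjusted p below 0.05. Efnb1 (4.98), Ephb2 (4.50), Sema4f (4.41) and Plxnb2 (4.27) stand at the upper end, and Sema4b (-1.80), Nrp2 (-2.75), Sema4a (-2.95) and Plxnd1 (-3.27) at the lower end. Ephb2 and Sema4f passed the filter on low counts through GCB alone.

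In the GCB genotype comparison 1 of the 23 family genes, Epha2, was called, beside 0.102% of all genes. The median log2 fold change of the 23 was 0.0076. With the block 3 were called, Epha2, Nrp2 and Plxna1, beside 2.14% of all genes. Plxna1, a plexin that can pair with Nrp2, measured 2.10, 2.00 and 2.85 CPM in WT GCB, against 5.75, 5.47 and 8.75 CPM in cKO GCB. The groups did not overlap. Its log2 fold change was 1.52 ± 0.26 (edgeR adjusted p = 0.0600, and 0.00227 with the block), with 1.45, 1.45 and 1.62 within the numbers. The authors' deposited table gives it 1.53 in GCB (FDR 0.0246). In FoB it was at 3.35 to 4.52 CPM in WT and 3.62 to 4.99 CPM in cKO (0.21 ± 0.26, edgeR adjusted p = 1). In the cKO GCB libraries Plxna1 thus lay above every FoB library, whereas Nrp2 lay below every FoB library.

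Known partners of the members were present to unequal degrees. Among Efnb1 receptors, Ephb2 had up to 2.09 CPM in any library, Ephb4 had 6 reads over all 12 libraries and Ephb6 had 31, and neither of the last pair was tested. Among Epha2 ligands, Efna1 was at 0.444 ± 0.193 CPM in WT GCB, against 0.671 ± 0.223 CPM in cKO GCB (edgeR adjusted p = 1), and Efna4 had 56 reads in all. Sema4c, a Plxnb2 ligand, had 56 reads over the 12 libraries, and Sema3f, an Nrp2 ligand, had 34. Efna3 and Sema3e were looked for by symbol and were not found in the count table.

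Of the receptors for the semaphorin members, Cd72, a B cell inhibitory receptor, fell from 354 ± 24.1 CPM in WT FoB to 105 ± 13.5 CPM in WT GCB (log2 -1.75 ± 0.22, edgeR adjusted p = 5e-05). Plxnb1, another Sema4d receptor, was at 0.537 ± 0.0542 and 0.877 ± 0.520 CPM (0.71 ± 0.54, edgeR adjusted p = 0.308). For Sema7a, Itgb1 rose from 85.1 ± 18.8 to 160.3 ± 40.3 CPM (log2 0.91 ± 0.27, edgeR adjusted p = 0.0151), which did not pass without WT FoB 3 (0.0658) or WT GCB 2 (0.0675). Plxnc1 was at 155 ± 25.8 and 128 ± 8.28 CPM (-0.27 ± 0.16, edgeR adjusted p = 0.188, and 0.0212 with the block).

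Of 34 listed signaling partners 29 were tested, and from FoB to GCB in WT 8 rose and 6 fell (median log2 fold change 0.08). These 14 calls of 29 lay near the share over all genes, 48.4% (25.6% higher, 22.8% lower). Arhgef12, which binds B-class plexins, rose by 1.28 ± 0.19 (edgeR adjusted p = 0.000159), and Tiam1, a Rac exchange factor, by 1.90 ± 0.35 (edgeR adjusted p = 0.000737). Timd2, a receptor reported for Sema4a in mouse, rose by 3.54 ± 0.36 (edgeR adjusted p = 9.8e-06). Vav3, an exchange factor recruited by Eph receptors including Epha2, fell by 3.12 ± 0.31 (edgeR adjusted p = 8.56e-06). Rgs3, which binds B-class ephrins, fell by 2.21 ± 0.23 (edgeR adjusted p = 1.18e-05), and Rras, a GTPase acted on by plexins, by 0.86 ± 0.22 (edgeR adjusted p = 0.00616).

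Arhgef11, which also binds B-class plexins, fell by 0.51 ± 0.20 (edgeR adjusted p = 0.0469), the partner call closest to the threshold. Leaving out 8 of the 12 libraries in turn took it above 0.05, to between 0.0517 and 0.178: cKO FoB 1, 2 or 3, cKO GCB 1, WT FoB 2 or 3, and WT GCB 1 or 2. In the GCB genotype comparison 0 of the 29 partners were called in edgeR without the block, 0 by DESeq2, and 1 had an unadjusted p below 0.05. Of all 13708 genes, 673 had such a p and DESeq2 called 130. With the block 1 of the 29 partners was called, beside 2.14% of all genes. It was Vav3, at 2.71 ± 0.892 CPM in WT and 5.17 ± 1.49 CPM in cKO (log2 0.93 ± 0.14, edgeR adjusted p = 0.00505). Vav3 was at 23.5 ± 3.64 CPM in WT FoB. Of the 14 slit, netrin and related guidance genes counted, 4 were tested, and 0 were called in either genotype comparison by edgeR with or without the block or by DESeq2. An unadjusted p below 0.05 was reached by 1 of them in GCB and 0 in FoB.

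The genes most like each member over the 12 libraries were found by the root mean square difference of log2 CPM, each gene centred on its own mean. These are descriptions across libraries that share depth and cell type. For Epha2 they were Synpo2 (0.342) and Zmat3 (0.438), for Nrp2 Pik3r5 (0.284) and Irf4 (0.346), and for Plxnd1 Zc3h12c (0.266) and Fam129c (0.272). For Efnb1 they were Lrrc3 (0.283) and Bcar1 (0.368), and for Plxnb2 Cdc20 (0.199) and Uchl1 (0.210). For Sema7a the nearest was Traf1 (0.158). For Sema4b they were Amz1 (0.088) and Pim3 (0.132), and for Sema4d Prr13 (0.063) and Gpat4 (0.065). Zmat3 measured 20.2 CPM on average in WT GCB, against 46.9 CPM in cKO GCB, and Pik3r5 5.48 and 13.5 CPM. Synpo2 averaged only 0.0276 CPM in WT FoB and 0.733 CPM in cKO GCB. In the FoB groups Lrrc3 averaged at most 0.0391 CPM and Bcar1 at most 0.0116 CPM. Such values lie near the floor, where the prior count of 2 in the log2 CPM shapes the distance. The distance for Epha2 was the widest of the 8 first neighbours, and that for Sema4d, the gene with the smallest spread about its own mean (0.194), the narrowest.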

How the data were processed

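The authors deposited raw read counts per gene for 12 RNA-seq libraries, and these counts were the values analysed. The submitters' processing notes name Bowtie2, MACS2, edgeR and the build mm10. The role and version of each, the read counter, the annotation and the use of strand were not given in the sources. The authors' deposited table of results gives log2 fold changes with p-values and FDR. The 4 ATAC-seq samples were not analysed here.

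Counts were fitted in R 4.3.3 with edgeR 4.0.16 (TMM factors, filterByExpr on the 4 groups, quasi-likelihood F test, 4 group means fitted to all 12 libraries). P-values were Benjamini-Hochberg adjusted over 13708 genes, with a threshold of 0.05, separately for each of 5 comparisons. The fit was also run on simulated counts drawn without any effect of the replicate number, so that run does not bear on variation shared by number. The kept genes held at least 99.93% of each library's counts, and the lowest count of a member was 15 reads.

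Replicate numbers pair the samples. After removal of group means, same-numbered libraries of different groups had correlations over genes of 0.478 to 0.753 (18 pairs). Differently numbered ones had -0.654 to 0.0952 (36 pairs). Removing the group means by itself pushes these below 0 when the same-numbered ones lie above 0, so they are no separate support. The block fit lowered the biological coefficient of variation from 0.266 to 0.114.

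Alternatives were RLE factors, no filter, the authors' filtered genes, DESeq2 1.42.0, the block, the 2 compared groups alone, and leaving out libraries. The members, the lists and the tests were chosen with earlier results of these data known. The rule for naming genes took the 8 members, Rock2, family genes past a genotype test with or without the block, the 6 higher and 6 lower called family genes with at least 1 CPM in the WT cell type comparison, known binding partners, the 4 higher and 4 lower signaling partners, and the 2 nearest genes per member, of which 1 is not reported here. Sequences and coordinates are from RefSeq GRCm38.p6, and 8 of 8 members had a promoter. Levels are not compared between genes, since transcript lengths were not used here.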

Additional observations from a re-analysis of the deposited data

Results flagged for a closer look

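Plxnd1 was flagged because its genotype difference had opposite signs in the 2 cell types at every replicate number. How many of all genes share this pattern was not counted. Plxnd1 was higher in cKO than in WT GCB in 3 of 3 numbers (1.23 ± 0.39 on the log2 scale). It was lower in cKO than in WT FoB in 3 of 3 numbers (-0.19 ± 0.37). Within the FoB numbers the values were -0.12, -0.54 and -0.07, and the fit became 0.085 without cKO FoB 2. The difference of the effects was 1.42 ± 0.53 and did not pass in edgeR (adjusted p = 1, and 0.166 with the replicate block). Without WT FoB 1 and cKO GCB 1 it was 0.75 ± 0.47 (edgeR adjusted p = 1).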

How the results depend on the processing

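In the GCB genotype comparison, 14 genes were called over the whole table and 1 in the guidance families. The count over the whole table was 62 without a filter, 293 with the replicate block, 130 with DESeq2, 5 with only the 2 groups, 7 without WT FoB 1 and cKO GCB 1, 1 without number 2, and 124 with the block but without those 2 libraries (this last setting was added after seeing the data). The family count was 3 without a filter, 3 with the block, 3 with DESeq2, 0 with only the 2 groups, 0 without the 2 libraries, 0 without number 2 and 3 with the block without them. Leaving out 1 library gave 5 to 58 genes and 0 to 1 family genes. It gave 58 without cKO GCB 3. Without any 1 of cKO GCB 1, cKO GCB 2, WT GCB 1, WT GCB 2 or WT GCB 3 it gave 5. In FoB the count of 0 became 5 without a filter, 4 with DESeq2 and 1 with the block without the 2 libraries. It stayed at 0 when any 1 library was left out. For the difference of effects the count of 1 became 2 without a filter, 36 with the block, 20 with DESeq2 and 0 without number 2. Between cell types, leaving out 1 library gave 5685 to 6948 genes in WT and 5504 to 6395 in cKO, with 11 to 15 family genes in each.

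Epha2 in GCB passed in 10 of 21 alternatives (adjusted p from 2.52e-08 to 0.567), Nrp2 in 4 (0.00107 to 0.580), Plxna1 in 4 (2.81e-05 to 0.620) and Plxnd1 in 0 (0.0511 to 1), with all 4 log2 fold changes above 0 in each. The alternatives that left out 1 library did not use the block. Nrp2 passed without a filter, with the block, with DESeq2 and with the block without the 2 libraries. Beyond the values already given, the block changed the call of Plxna1 in the cKO cell type comparison (0.57 ± 0.19, adjusted p = 0.0180), and among the members it changed no other call.

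No value that changed sign had passed a test. Without number 2, Plxnb2 in GCB was 0.0042, Sema4b in FoB 0.057, Rock2 between the cKO cell types -0.089 and the Efnb1 difference of effects 0.034. Without WT FoB 1 and cKO GCB 1, the FoB values were 0.25 for Nrp2, -0.016 for Sema4d and 0.25 for Sema7a, and the Efnb1 difference was 0.18. With the block and without the 2 libraries, the FoB values were 0.34 for Nrp2 and 0.25 for Sema7a, and the differences were -0.028 for Plxnb2 and 0.076 for Rock2. With the block the Efnb1 difference was 0.016. With 1 library left out, the values in GCB ranged from -0.33 to 0.031 for Plxnb2 and -0.18 to 0.0021 for Sema4d. In FoB they ranged from -0.25 to 0.25 for Nrp2, -0.38 to 0.085 for Plxnd1, -0.23 to 0.17 for Sema4b, -0.023 to 0.14 for Sema4d and -0.25 to 0.25 for Sema7a. The differences ranged from -0.47 to 0.43 for Efnb1, -0.041 to 0.32 for Plxnb2 and -0.24 to 0.041 for Rock2. The causes of these changes were not tested. Depth limits Epha2 and Nrp2, with 15 and 19 reads in their lowest libraries.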
